A study of Chlorella sp. HS2 with 12 samples.

Results

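TRINITY_DN865_c0_g1 is 1 of 57640 genes in the authors' assembly for the single-celled green alga Chlorella sp. HS2 and carries the name citrate synthase from its best Swiss-Prot hit. It was picked by that name and for its level across the 4 groups of the study, so its levels and fold changes are given as a description, without a test. Tests stand only for other genes. The gene was among the 31491 that passed a filter on low counts.

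All cultures were of 1 strain grown on light and CO2 in photobioreactors. The freshwater groups had inorganic medium without added sea salt, and the marine groups had inorganic medium with 3% (w/v) sea salt. Each medium was sampled at 4 days, in exponential growth, and at 6 days, in stationary phase, which gave 4 groups of 3 poly(A)-selected libraries. Each library held 9378066 to 11280635 estimated counts, the read pairs that the authors' program RSEM assigned to genes. Library codes in the labels share a stem among all 3 marine exponential libraries and between 2 of the 3 marine stationary ones, while no freshwater libraries share one. Whether such libraries came from separate cultures is not stated, so the spread within the marine groups may be in part technical. As an alternative, libraries that share a code were summed and counted as 1, which leaves 1 marine exponential and 2 marine stationary libraries. The third marine stationary library, the one without a shared code, stands apart in its scaling factor. It has 1.11, against 1.40 and 1.39 for the pair that share a code.

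Citrate synthase joins acetyl-CoA and oxaloacetate to citrate, the entry step of the tricarboxylic acid cycle in mitochondria, which oxidises carbon for respiration and supplies 2-oxoglutarate for amino acid synthesis. In plants and algae a further form in peroxisomes or glyoxysomes serves the glyoxylate cycle, in which isocitrate lyase and malate synthase bypass the steps that release CO2, so that acetyl-CoA from fatty acids or acetate can be turned into sugars. Phosphoenolpyruvate carboxykinase then starts the path from oxaloacetate to sugar. Citrate can also leave the mitochondrion and be split by ATP-citrate lyase into acetyl-CoA for lipid synthesis.

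The assembly holds 20 transcripts of TRINITY_DN865_c0_g1. Of these, 19 have a reading frame with the citrate synthase domain and 18 have a protein hit, each to a citrate synthase and none to another protein. The hits are all to bacterial enzymes, from Rhizobium meliloti for 8 transcripts, Rhizobium tropici for 5, Bartonella for 3 and Pseudomonas aeruginosa for 2. The transcript with the longest reading frame, 1572 bases, matched residues 11 to 429 of the Rhizobium tropici enzyme at 64% identity. The deposited annotation gives the gene a length of 5261 bases, a mean similarity of 71.36% and a KEGG number for citrate synthase. Its compartment is not given by these names, and no sequence of the gene was used here.

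The gene was highest in freshwater exponential cultures and lowest in marine stationary ones, and the medium separated the libraries more than the phase did. Levels are in CPM, the usual rate of counts relative to library size, here after adjustment with TMM factors, which set libraries to a common effective size. In freshwater exponential phase the 3 libraries had 5501, 5443 and 5341 CPM of TRINITY_DN865_c0_g1. In freshwater stationary phase they had 2469, 1789 and 2052 CPM. These 2 freshwater groups did not overlap, and the stationary libraries differed more among themselves than the exponential ones.

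In marine exponential phase TRINITY_DN865_c0_g1 stood at 514, 482 and 512 CPM. In marine stationary phase it stood at 184, 179 and 258 CPM, with the third library the highest. No marine library reached the level of any freshwater library: the lowest freshwater library had 3.48 times the CPM of the highest marine one.

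As means ± SD (n = 3 libraries), the levels were 5428 ± 81.0 CPM in freshwater exponential, 2103 ± 343 CPM in freshwater stationary, 503 ± 17.8 CPM in marine exponential and 207 ± 44.6 CPM in marine stationary phase. Neighbours in this order were separated by more than their spread. Freshwater stationary cultures had 4.18 times the level of marine exponential ones, and the extremes differed 26.2-fold.

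**Figure D1:**
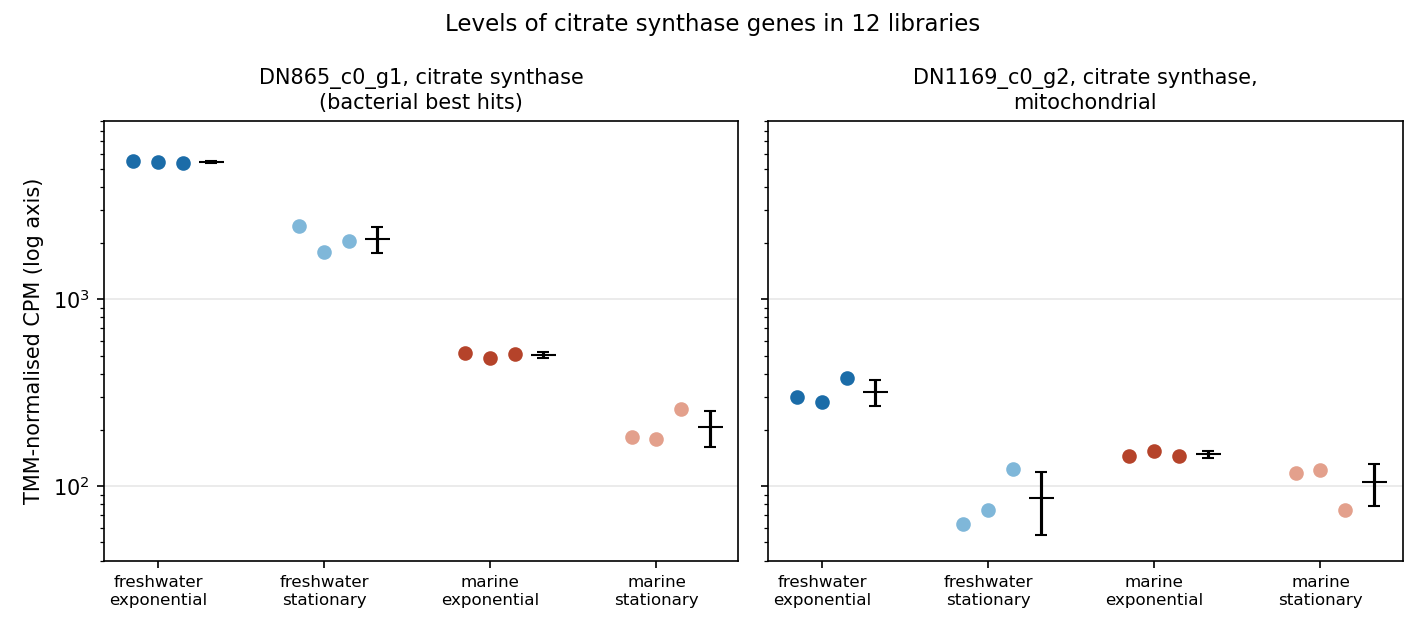
Levels of the citrate synthase gene TRINITY_DN865_c0_g1 (left) and of the mitochondrial citrate synthase gene TRINITY_DN1169_c0_g2 (right) as TMM-normalised CPM on a log axis; points are libraries, and the bar beside them is the mean ± SD of 3. The left gene falls from 5428 to 207 CPM with no overlap between groups, while the right gene stays between 62.8 and 377 CPM with overlap between the stationary groups.

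Sea salt went with a 10.8-fold lower level in exponential phase, a log2 fold change of -3.43 ± 0.18 (SE), and with a 10.2-fold lower level in stationary phase, -3.35 ± 0.18. These values come from a model fitted in edgeR to all 12 libraries. Between the phases the salt effect on the gene differed by 0.09 ± 0.23, less than its own error; without single libraries this ran from -0.11, without marine stationary replicate 3, to 0.47, without marine exponential replicate 1, and with DESeq2 size factors it was 0.27. Every one of the other leave-one-out values lay above 0.09. From exponential to stationary phase the level fell 2.58-fold in freshwater (-1.37 ± 0.17) and 2.43-fold in marine medium (-1.28 ± 0.17). The median log2 fold change over all tested genes was 0.00 for salt in exponential phase, 0.23 for salt in stationary phase, 0.27 for phase in freshwater and 0.01 for phase in marine medium.

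The size of the salt effect depended on the scaling. The TMM factors ran from 0.738 in a freshwater exponential library to 1.40 in a marine stationary one. With library totals in place of TMM factors, the salt effect on TRINITY_DN865_c0_g1 was 6.95-fold in exponential phase and 6.85-fold in stationary phase as ratios of means, and -2.80 and -2.79 on the log2 scale as fitted. That scaling moved the median gene of 21428 found in both media by 0.63 and 0.58 on the log2 scale, and relative to this shift the gene stood at -3.43 and -3.36.

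As a plain share of a library's estimated counts, TRINITY_DN865_c0_g1 took 0.404% ± 0.0130 and 0.174% ± 0.0264 in freshwater and 0.0581% ± 0.00158 and 0.0254% ± 0.00205 in marine medium, exponential before stationary phase. By count, with no allowance for length, it ranked 21st to 27th among all genes in the freshwater exponential libraries. It ranked 49th to 76th in freshwater stationary, 210th to 235th in marine exponential and 549th to 623rd in marine stationary libraries. In RNA from whole cultures, a lower level per cell and fewer cells that make the transcript cannot be told apart.

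The authors' deposited table gives mean normalised signals of 57236, 24402, 4927 and 1816 for the gene, in the order freshwater exponential, freshwater stationary, marine exponential and marine stationary. In the same authors' deposited table its log2 fold changes for salt were -3.54 in exponential and -3.75 in stationary phase. The difference between these 2 salt effects was -0.21 there, opposite in sign to the 0.09 fitted here.

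The assembly component TRINITY_DN865_c0 holds 2 genes, and the summed component followed TRINITY_DN865_c0_g1 closely. That gene held 98.8% to 100.0% of the component's counts in the 12 libraries. The sums, scaled like the genes, were 5428 ± 81.5 CPM in freshwater exponential, 2103 ± 343 CPM in freshwater stationary, 504 ± 18.3 CPM in marine exponential and 209 ± 44.5 CPM in marine stationary phase. When all components were summed, scaled and fitted anew, the component was 12.8-fold lower with salt in exponential phase and 9.48-fold lower in stationary phase. These 2 salt effects then differed by 0.43 on the log2 scale, against 0.09 for the gene alone.

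The second gene of the component, TRINITY_DN865_c0_g2, is a sequence of 467 bases with no protein hit and went the other way at a trace level. It had 8.14 counts in 1 freshwater exponential library and 0 in the other five freshwater libraries, against 9.32 to 33.2 counts in each marine library. In stationary phase it was at least 14.03-fold higher in marine medium, taking 3 counts over the freshwater group as the floor, with an edgeR FDR of 0.0463 over all genes tested. FDR is the Benjamini-Hochberg adjusted p of edgeR's quasi-likelihood test, and genes are called below 0.05. That call was lost under 14 of 19 alternatives, and over all of them the FDR ran from 0.0072 to 0.253. The fragment passed the filter on low counts through the marine libraries, so the call is not read as a result. Reads of the larger gene and of this fragment may be split by the assembly.

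Beside TRINITY_DN865_c0_g1, 4 other tested genes were named citrate synthase, and only TRINITY_DN1169_c0_g2 was found above a trace in both media. This gene has the mitochondrial enzyme of carrot as its best hit, and all 8 of its transcripts carry the citrate synthase domain. Its libraries had 299, 283 and 377 CPM in freshwater exponential, 62.8, 74.8 and 123 CPM in freshwater stationary, 145, 155 and 144 CPM in marine exponential, and 117, 123 and 74.3 CPM in marine stationary phase. The exponential groups did not overlap between media, and the stationary groups did.

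In exponential phase the mitochondrial gene TRINITY_DN1169_c0_g2 was lower with salt by a log2 fold change of -1.11 ± 0.26 (edgeR FDR 0.0126). At that threshold 20.1% of all tested genes were called, 10.8% lower and 9.3% higher. With library totals the value was -0.48 and the call was lost (FDR 0.219). In stationary phase its salt effect was 0.27 ± 0.26 (FDR 0.476), where TRINITY_DN865_c0_g1 stood at -3.35. In that comparison 26.3% of tested genes were called. The authors' deposited table gives its stationary salt effect as -0.13. In freshwater it fell from exponential to stationary phase by 1.88 on the log2 scale (± 0.26, FDR 0.00106), and 4.42% of tested genes were called lower and 6.46% higher there, 10.9% in all. The difference of its salt effects between the phases, 1.38 ± 0.36, was called by a narrow margin (FDR 0.0479), and 14 of 19 alternatives lost the call, with an FDR from 0.000612 to 1 over all of them.

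Per kilobase of the deposited sequence lengths, TRINITY_DN865_c0_g1 stood at 1032 CPM against 101 for the mitochondrial gene in freshwater exponential phase, 10.2 times as high. In stationary freshwater cultures the ratio per kilobase was 14.6, and in marine cultures it was 2.04 in exponential and 1.19 in stationary phase. In single libraries the plain CPM ratio of the pair ran from 14.2 to 39.3 in freshwater and from 1.46 to 3.55 in marine medium, without overlap. Of the counts of the 5 named citrate synthase genes, TRINITY_DN865_c0_g1 held 94.3% ± 1.00 and 95.5% ± 1.41 in freshwater and 77.2% ± 1.37 and 65.7% ± 9.69 in marine medium, exponential before stationary phase and with no allowance for length.

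The remaining named citrate synthases were at low levels. TRINITY_DN3962_c0_g1, with a best hit to the slime mould Dictyostelium discoideum, had 3.00 to 13.9 CPM in the freshwater libraries and 0 counts in the marine ones. It was at least 78.5-fold lower with salt in exponential and at least 125-fold lower in stationary phase, taking 3 counts over the marine group as the floor (edgeR FDR 0.00394 and 0.00338). The gene passed the filter on low counts through the freshwater libraries alone, so these calls are not read as a result. The first call was lost with libraries of shared codes summed (FDR 0.122). TRINITY_DN42083_c0_g1 and TRINITY_DN39590_c0_g1, of 368 and 376 bases, reached at most 2.56 and 2.02 CPM in any library and were not called in any of the 5 contrasts. A further gene, TRINITY_DN172_c0_g1, has a KEGG number for citrate synthase in the deposited pathway table, and it was added after its annotation was seen. Of its 4 transcripts 2 carry the domain, in reading frames 56.6% and 64.8% identical to a peroxisomal enzyme of Arabidopsis, but its 15049 bases also match unrelated proteins. Its level of 122 to 186 CPM as group means therefore cannot be read as citrate synthase alone.

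Since the hits of TRINITY_DN865_c0_g1 are bacterial, the other genes with a bacterial best hit are set beside it. These 1274 genes held 3.79% ± 0.254 and 3.74% ± 0.196 of counts in freshwater and 3.17% ± 0.0460 and 2.77% ± 0.0408 in marine medium, exponential before stationary phase. The citrate synthase gene's counts amounted to 9.66% of the bacterial-hit total in freshwater exponential and 0.910% in marine stationary phase. Of 669 tested ones, 105 were higher and 147 lower with salt in exponential phase, and 138 higher and 170 lower in stationary phase, with medians of 0.00 and 0.03 on the log2 scale. These were 15.7% and 22% in exponential and 20.6% and 25.4% in stationary phase, higher before lower, against 9.3% and 10.8%, and 9.02% and 17.3%, of all tested genes. A bacterial best hit does not make a gene bacterial. The organism that the transcript came from was not tested.

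The genes closest in profile to TRINITY_DN865_c0_g1 among those of its pathway included isocitrate lyase and malate synthase of the glyoxylate cycle and some genes beside it. Likeness was measured as Pearson's r of log2 CPM over the 12 libraries, which form 4 groups, so it mostly reflects group means. For phosphoenolpyruvate carboxykinase TRINITY_DN616_c0_g1, r was 0.99. For isocitrate lyase TRINITY_DN176_c1_g1 it was 0.97, and for acetyl-CoA synthetase TRINITY_DN706_c1_g2, which activates acetate, 0.96. Malate synthase TRINITY_DN1209_c0_g1 had 0.95, aconitase TRINITY_DN650_c1_g1 had 0.47, and the mitochondrial citrate synthase had 0.51. Among genes of the tricarboxylic acid cycle succinate dehydrogenase TRINITY_DN1005_c0_g1 had 0.96 and fumarase TRINITY_DN684_c0_g1 had 0.90. Other genes of these steps were less like TRINITY_DN865_c0_g1. The succinate dehydrogenase genes TRINITY_DN3299_c0_g1 and TRINITY_DN3299_c0_g2 had 0.65 and 0.42. The malate dehydrogenase TRINITY_DN1577_c0_g2, named glyoxysomal, had -0.08, and a second phosphoenolpyruvate carboxykinase gene, TRINITY_DN616_c0_g2, had -0.004.

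Isocitrate lyase and malate synthase are the 2 enzymes particular to the glyoxylate cycle, and 2 of 6 genes so named passed the filter on low counts. Both have a bacterial best hit, like TRINITY_DN865_c0_g1. The hits are to Bacillus halodurans for isocitrate lyase and to Myxococcus xanthus, with an E-value of 4.2e-14, for malate synthase. The organism that these 2 transcripts came from was not tested. Isocitrate lyase TRINITY_DN176_c1_g1 had 1439, 1432 and 1472 CPM in freshwater exponential, 692, 649 and 677 CPM in freshwater stationary, 211, 222 and 223 CPM in marine exponential, and 212, 203 and 183 CPM in marine stationary phase. As for citrate synthase, the media did not overlap, but the 2 marine groups did. With salt it fell by 2.73 ± 0.09 on the log2 scale in exponential and by 1.75 ± 0.09 in stationary phase (edgeR FDR 1.83e-07 and 1.79e-06).

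Malate synthase TRINITY_DN1209_c0_g1 fell from 327 ± 15.1 to 10.8 ± 1.38 CPM with salt in exponential phase, a log2 fold change of -4.92 ± 0.26 (FDR 1.05e-06). In stationary phase it fell from 120 ± 18.7 to 10.9 ± 3.58 CPM, -3.46 ± 0.24 (FDR 8.08e-06). Both genes were lower in stationary than in exponential freshwater cultures, by 1.11 and 1.45 on the log2 scale. In marine medium neither changed with phase beyond the threshold (-0.13 and 0.02, FDR 0.675 and 1), where TRINITY_DN865_c0_g1 stood at -1.28. These 2 genes made up the whole tested list, and both were called lower with salt in each phase, against 10.8% of all tested genes in exponential and 17.3% in stationary phase.

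**Figure D2:**
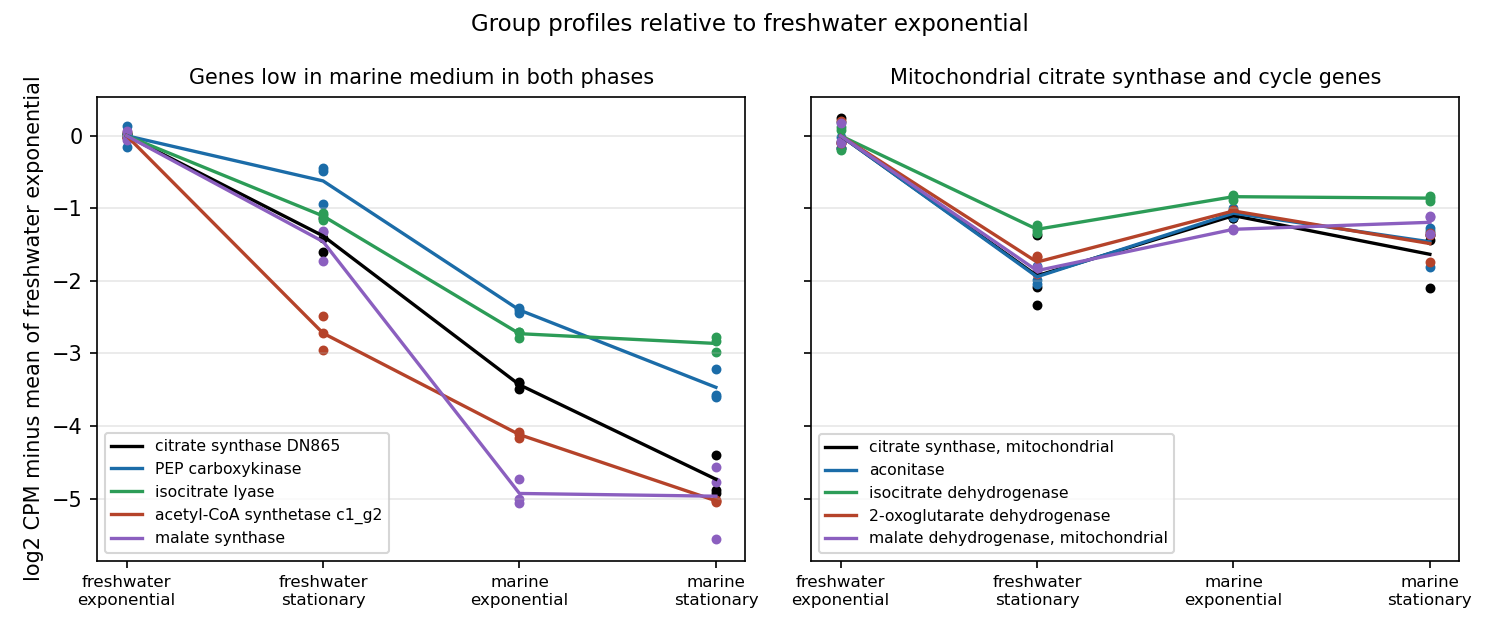
Log2 CPM minus the gene's mean in freshwater exponential phase for 5 genes low in marine medium in both phases (left) and for the mitochondrial citrate synthase with 4 cycle genes (right); points are libraries and lines join group means. On the left citrate synthase TRINITY_DN865_c0_g1 steps down through all 4 groups, while on the right the mean of the freshwater stationary group lies below both marine means for each gene.

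Acetyl-CoA, one substrate of citrate synthase, comes from pyruvate dehydrogenase or from acetate. The acetyl-CoA synthetase gene TRINITY_DN706_c1_g2 had 3171, 3008 and 2973 CPM in freshwater exponential and 170, 180 and 176 CPM in marine exponential phase. Its salt effect was -4.12 ± 0.13 there and -2.32 ± 0.12 in stationary phase (edgeR FDR 1.45e-07 and 1.82e-06). Like TRINITY_DN865_c0_g1 it was lower in stationary phase in both media, by 2.71 in freshwater and 0.91 in marine medium (FDR 9.44e-07 and 0.0055). A second gene of its assembly component, TRINITY_DN706_c1_g1, had smaller salt effects of -0.85 and -1.05. Reads could be split between these 2 genes. In the acetyl-CoA supply list 24 of 41 genes were tested, of which 14 were found in both media, with at least 15 counts in each. Of these 14, 5 were higher and 5 lower with salt in exponential phase, and 7 higher and 3 lower in stationary phase, with medians of 0.01 and 0.09 on the log2 scale. Over all tested genes 9.3% and 10.8%, and 9.02% and 17.3%, were called higher and lower in these phases. Among the other 10 tested genes, 1 was higher and 5 lower in exponential phase, and 0 higher and 6 lower in stationary phase; genes found in 1 medium passed the filter on low counts through that medium, so their calls are not read as a result. Splitting lists this way was chosen after the data were seen.

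For the other substrate, oxaloacetate, single genes differed in direction. Phosphoenolpyruvate carboxykinase TRINITY_DN616_c0_g1, which takes oxaloacetate away, had 2059, 2350 and 2512 CPM in freshwater exponential, 1637, 1202 and 1692 CPM in freshwater stationary, 437, 445 and 424 CPM in marine exponential, and 193, 189 and 247 CPM in marine stationary phase. The groups stood in the same order as those of citrate synthase TRINITY_DN865_c0_g1, again without overlap. Its salt effects were -2.41 ± 0.17 and -2.85 ± 0.17 (edgeR FDR 4.77e-06 and 2.98e-06). A second gene of its assembly component with the same name, TRINITY_DN616_c0_g2, stood at 0.03 and 0.27 (FDR 0.989 and 0.27), and reads could be split between them.

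Of the genes for enzymes that make oxaloacetate, phosphoenolpyruvate carboxylase TRINITY_DN2649_c0_g1 rose with salt by 1.64 ± 0.14 on the log2 scale in stationary phase (edgeR FDR 2.46e-05). In exponential phase its value was 0.51 ± 0.14 (FDR 0.0232), a call that 11 of 20 alternatives lost. Another phosphoenolpyruvate carboxylase gene, TRINITY_DN1951_c0_g2, was higher with salt by 1.55 in exponential and 1.80 in stationary phase (edgeR FDR 0.000411 and 0.000192). Pyruvate carboxylase TRINITY_DN1100_c1_g2, which also makes oxaloacetate, stood at -0.11 ± 0.10 in exponential phase (FDR 0.446) and fell by 0.99 ± 0.10 in stationary phase (FDR 7.39e-05). An NADP-dependent malic enzyme gene, TRINITY_DN1988_c0_g1, which interconverts malate and pyruvate, rose by 1.86 ± 0.23 in exponential phase (FDR 0.000286) and stood at 0.06 ± 0.23 in stationary phase (FDR 0.902). Of 11 tested genes in the oxaloacetate list, which includes carboxykinases and malic enzymes, 9 were found in both media. Of these, 5 were higher and 1 lower with salt in exponential phase, and 5 higher and 2 lower in stationary phase, with medians of 0.51 and 0.54. Higher calls made up 9.3% and 9.02% of all tested genes in these phases, and lower calls 10.8% and 17.3%.

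The genes named for the steps of the tricarboxylic acid cycle after citrate synthase were, where called, lower with salt in exponential phase and mixed in stationary phase. Of 50 genes named for these steps 32 were tested, and 13 of these were found in both media. Names were matched by enzyme and not by compartment. The 13 thus include malate dehydrogenases named chloroplastic (TRINITY_DN1577_c0_g5), glyoxysomal (TRINITY_DN1577_c0_g2) and cytoplasmic (TRINITY_DN3067_c0_g1). The chloroplastic one was among those higher with salt in stationary phase. Some of the 13 share an assembly component, TRINITY_DN1577_c0 or TRINITY_DN3299_c0. Among the 13, 11 were lower and 0 higher with salt in exponential phase, with a median log2 fold change of -1.07 against -3.43 for TRINITY_DN865_c0_g1. In stationary phase 2 were lower and 6 higher, with a median of 0.30. Lower calls made up 10.8% and 17.3% of all tested genes and higher calls 9.3% and 9.02%. From exponential to stationary phase in freshwater 12 were lower and 1, the malate dehydrogenase named glyoxysomal, was higher. Of all tested genes 4.42% were called lower and 6.46% higher there. In marine medium edgeR called 0 in either direction, where 0.311% of all tested genes were called higher and 1.32% lower, 1.63% in all. The stationary salt effects of the named cycle genes were lower in the authors' deposited table. They were 0.10 there for aconitase TRINITY_DN650_c1_g1 and 0.03 for isocitrate dehydrogenase TRINITY_DN6004_c0_g1, against 0.50 and 0.43 here. They were -0.14 for 2-oxoglutarate dehydrogenase TRINITY_DN3311_c0_g1, -0.10 for succinate-CoA ligase TRINITY_DN1776_c0_g3 and 0.27 for mitochondrial malate dehydrogenase TRINITY_DN1577_c0_g1, against 0.26, 0.30 and 0.67.

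The salt effect was called more positive in stationary than in exponential phase for 11 of the 13 cycle genes and more negative for 0, where 2.38% and 4.79% of all tested genes were called so, 7.17% in all. The other 19 tested cycle genes averaged at most 3.29 CPM over the 12 libraries. Of them 10 were lower and 0 higher with salt in exponential phase, and 11 lower and 1 higher in stationary phase. Genes found in 1 medium passed the filter on low counts through that medium, so the calls of these 19 are not read as a result. With these 19 included, the medians over the 32 tested genes were -1.78 and -0.38, the latter of the opposite sign to that of the 13. Counted over all 32, 21 were lower in exponential phase, and 13 were lower and 7 higher in stationary phase. Leaving out single libraries gave 14 to 23 lower cycle genes in exponential phase, and in stationary phase 3 to 6 higher and 5 to 12 lower ones. Summing the libraries with shared codes leaves 1 marine exponential library, and fewer cycle genes were then called in both phases. Far fewer of all tested genes were called as well, so this loss is not particular to the cycle genes. With that summing the salt effect on TRINITY_DN865_c0_g1 was -3.34 and -3.10. Among all named genes other than TRINITY_DN865_c0_g1, this summing ended calls in all 5 contrasts. It ended every phase call in marine medium and every call of a difference between the salt effects. The named genes include those chosen for the highest and lowest r in these same libraries. The share of named calls that remained is therefore not read as a result. The calls for the mitochondrial citrate synthase, aconitase and mitochondrial malate dehydrogenase with salt in exponential phase were among those lost (edgeR FDR 0.503, 0.235 and 0.0702), and those for isocitrate lyase, malate synthase, acetyl-CoA synthetase TRINITY_DN706_c1_g2 and phosphoenolpyruvate carboxykinase remained (FDR 0.0017 to 0.00982).

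Aconitase, the next enzyme after citrate synthase, gives an example. The gene TRINITY_DN650_c1_g1 had 2064, 1856 and 2386 CPM in freshwater exponential, 508, 525 and 601 CPM in freshwater stationary, 984, 1048 and 964 CPM in marine exponential, and 842, 868 and 598 CPM in marine stationary phase. Its freshwater stationary libraries reached no higher than 601 CPM, and the lowest marine library had 598 CPM, whereas for TRINITY_DN865_c0_g1 every freshwater library was above every marine one. Its salt effect was -1.07 ± 0.16 in exponential phase (edgeR FDR 0.000796) and 0.50 ± 0.16 in stationary phase (FDR 0.0412), and 13 of 20 alternatives lost the latter call. With library totals the exponential call was lost as well (FDR 0.139). Per kilobase, citrate synthase TRINITY_DN865_c0_g1 was at 1.88 times the level of aconitase in freshwater exponential and at 0.196 times its level in marine stationary phase.

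The mitochondrial malate dehydrogenase gene TRINITY_DN1577_c0_g1, which regenerates oxaloacetate, also had salt effects of opposite sign in the 2 phases. Its salt effect was -1.29 ± 0.11 in exponential and 0.67 ± 0.11 in stationary phase (edgeR FDR 1.56e-05 and 0.00129). The stationary call was lost for the component sum (FDR 0.0912) and with libraries of shared codes summed (FDR 0.0597). Succinate dehydrogenase is shared by the cycle and the respiratory chain, and its genes differed. TRINITY_DN1005_c0_g1 was lower in both phases, by 1.88 ± 0.10 and 1.09 ± 0.10 (FDR 1.18e-06 and 4.66e-05). TRINITY_DN3299_c0_g1 and TRINITY_DN3299_c0_g2, of the same name, stood at -1.37 and -1.69 in exponential phase (edgeR FDR 0.000186 and 0.00181). In stationary phase these 2 stood at 0.15 and 0.95 (FDR 0.518 and 0.0335). Fumarase TRINITY_DN684_c0_g1 was lower by 0.71 ± 0.11 in exponential phase (FDR 0.000987), a call lost with library totals (FDR 0.759).

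**Figure D3:**
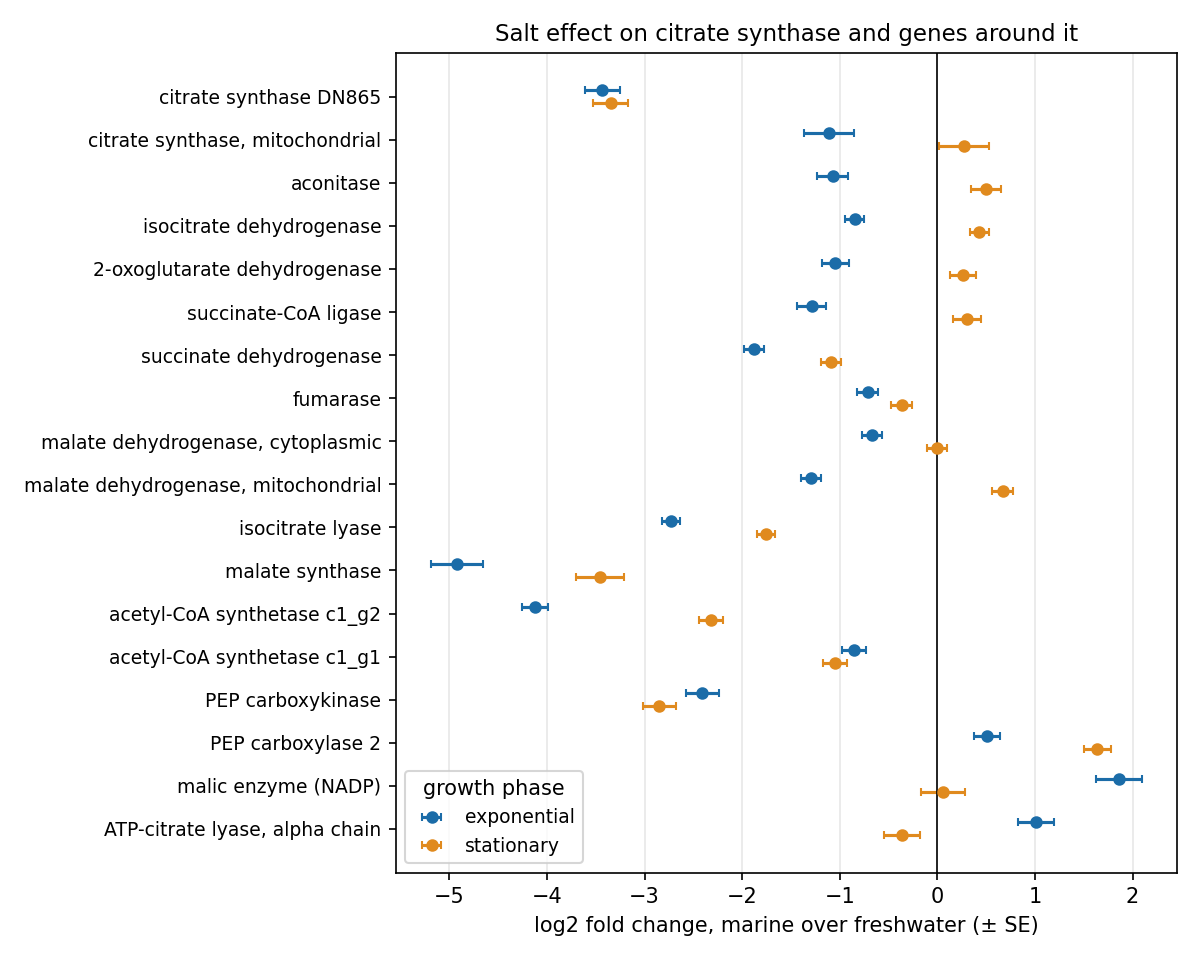
Log2 fold change of marine over freshwater medium (± SE) in exponential and stationary phase for citrate synthase TRINITY_DN865_c0_g1 and 17 genes of the steps around it. Citrate synthase lies at -3.43 and -3.35, isocitrate lyase at -2.73 and -1.75 and malate synthase at -4.92 and -3.46, while most cycle genes lie below 0 in exponential phase and near or above 0 in stationary phase.

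Genes that use or export citrate outside the cycle were mixed. ATP-citrate lyase TRINITY_DN1223_c0_g1 stood at 1.01 ± 0.18 with salt in exponential phase (edgeR FDR 0.00315) and at -0.36 ± 0.18 in stationary phase (FDR 0.155). The first call was lost without any 1 marine exponential library, without freshwater exponential replicate 3, and with libraries of shared codes summed (highest FDR 0.171). The mitochondrial carrier TRINITY_DN1651_c0_g1, which moves dicarboxylates and tricarboxylates across the inner membrane, fell by 1.72 ± 0.24 in exponential phase (FDR 0.000486). In stationary phase it stood at 0.81 (edgeR FDR 0.0307), a call that 14 of 20 alternatives lost. Of 7 tested genes in this list 4 were found in both media, of which 2 were higher and 1 lower with salt in exponential phase, and 2 higher and 0 lower in stationary phase. The other 3, which averaged at most 2.08 CPM, were called lower in both phases. Those calls are not read as a result, since genes found in 1 medium passed the filter on low counts through it. The list of 2-oxoglutarate use also holds glutamine synthetases, which do not use 2-oxoglutarate themselves. In this list 7 of 14 tested genes were found in both media. Of these, 3 were higher and 1 lower in exponential phase, and 4 higher and 2 lower in stationary phase. Over all tested genes 9.3% and 9.02% were called higher in the 2 phases and 10.8% and 17.3% lower. Cytosolic glutamine synthetase TRINITY_DN1744_c0_g1, which assimilates ammonium, was the opposite of citrate synthase, higher with salt by 1.93 ± 0.15 and 2.05 ± 0.15 (FDR 1.1e-05 and 1.03e-05).

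Across all pathways, the genes most like TRINITY_DN865_c0_g1 were sought among 2884 whose mean log2 CPM was 3 or more and whose protein hit had an E-value of at most 1e-20. The 8 highest r, from 0.986 to 0.993, belonged to a kinase of the abkC type (TRINITY_DN262_c1_g1), peptide deformylase 1A (TRINITY_DN441_c0_g1), hydroxymethylglutaryl-CoA synthase (TRINITY_DN2103_c0_g1), phosphoenolpyruvate carboxykinase, a kinase with a hit to CTR1 (TRINITY_DN782_c1_g2), mitochondrial uncoupling protein 3 (TRINITY_DN451_c0_g1), an RNA helicase with a hit to DEAH9 (TRINITY_DN196_c1_g1) and aspartate-semialdehyde dehydrogenase (TRINITY_DN6589_c0_g1). By Spearman's rho the helicase came first with 1.00, and it was the only one of the 8 that stayed among the 8 highest. The lowest r belonged to AMP deaminase TRINITY_DN1681_c0_g1 with -0.98 and to glyoxalase domain-containing protein 4, TRINITY_DN313_c0_g1, also with -0.98.

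Hydroxymethylglutaryl-CoA synthase, which like citrate synthase condenses acetyl-CoA with another substrate and serves sterol synthesis in animals and fungi, showed the largest salt effect of these 8 in exponential phase. TRINITY_DN2103_c0_g1 had 539, 533 and 623 CPM in freshwater exponential and 63.2, 61.9 and 60.0 CPM in marine exponential phase. The helicase gene TRINITY_DN196_c1_g1 had 3669 ± 303 and 2087 ± 289 CPM in freshwater and 517 ± 13.1 and 263 ± 160 CPM in marine medium, exponential before stationary phase. Its marine stationary replicate 3 stood apart with 447 CPM against 176 and 167 CPM in the other two. AMP deaminase, which converts AMP to IMP, ran the other way, from 13.2 ± 2.01 CPM in freshwater exponential to 78.3 ± 5.52 CPM in marine stationary phase.

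**Figure D4:**
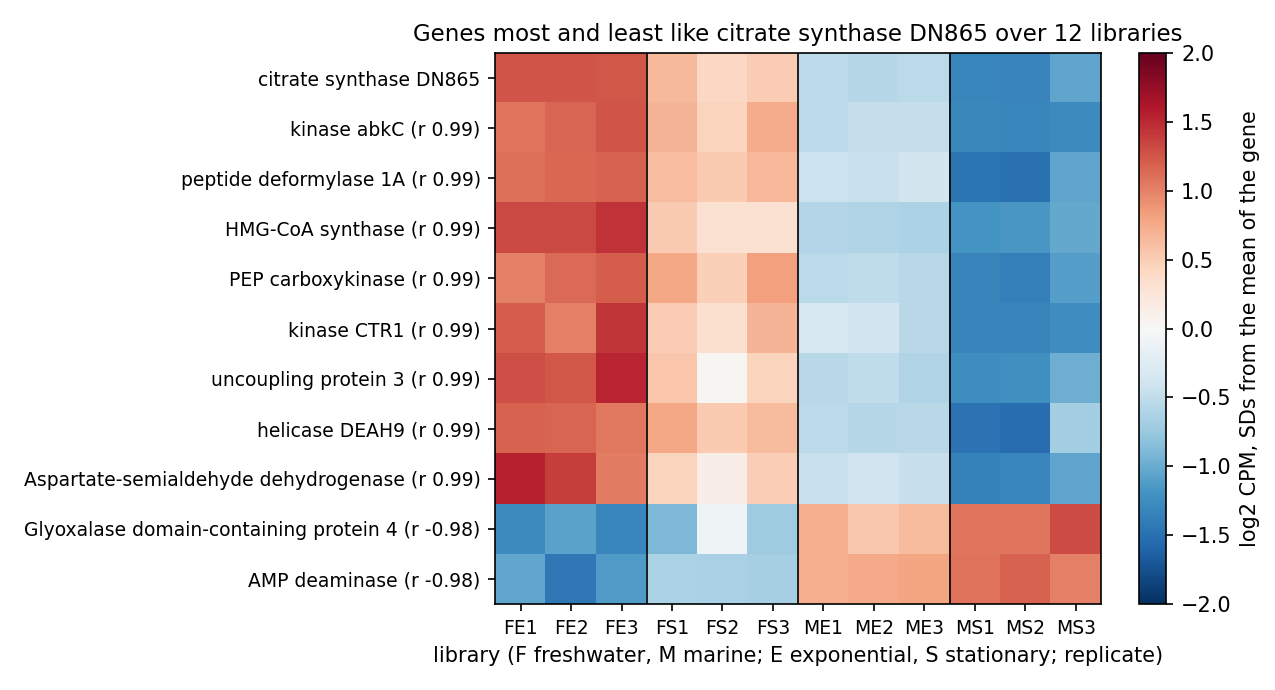
Log2 CPM of citrate synthase TRINITY_DN865_c0_g1, of the 8 genes with the highest r and of the 2 with the lowest, in the 12 libraries, in SDs from each gene's own mean (red above, blue below). The first 9 genes are highest in freshwater exponential and lowest in marine stationary libraries, and the last 2 run in the opposite direction.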

How the data were processed

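The deposited matrix holds expected counts per assembled gene, made by the authors with RSEM 1.3.2 after Bowtie alignment, per the submitters' processing notes, and not normalised. The authors' deposited comparison table gives a mean normalised signal per group, log2 fold changes, and adjusted p-values, which were not used here; the notes name DESeq2 1.20.0. The deposited annotation table gives a length in bases, a similarity in percent and an E-value, a score of the best Swiss-Prot hit, for 1 sequence per gene. Libraries were made without strand information, per the labels' protocols.

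Expected counts were rounded. Genes were filtered with filterByExpr, libraries scaled by TMM, and group means over all 12 libraries were estimated together in edgeR 4.0.16 (R 4.3.3; tables and figures in Python 3.11.15), tested on simulated data, with Benjamini-Hochberg adjustment over 31491 genes and 5 contrasts. With 3 against 3 libraries an exact permutation p cannot go below 0.1. DESeq2 1.42.0 was an alternative. Depth behind each value is the library total; floors of 3 counts cover counting error only. The 7 lists were patterns over product names of hits with an E-value of at most 1e-10, some names removed after matches were seen. The members, lists and tests were chosen with earlier results of these data known. Named genes were the chosen gene, its component, other citrate synthases, per role the gene with the highest mean and any of at least 0.1 of the chosen gene's mean, and the 8 highest and 2 lowest r. Not every gene so named is described. Same-numbered replicates did not deviate together (r from -0.053 to 0.036 over 18 pairs of libraries), so the numbers were not taken as pairs.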

Additional observations from a re-analysis of the deposited data

Results flagged for a closer look

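For some of the named genes the salt effect differed between the phases at an edgeR FDR under 0.05 for the difference itself; values are the effect in stationary minus that in exponential phase, on the log2 scale. Among cycle genes and the mitochondrial citrate synthase all were positive. They were 1.38 for mitochondrial citrate synthase TRINITY_DN1169_c0_g2, 1.57 for aconitase TRINITY_DN650_c1_g1, 1.28 for isocitrate dehydrogenase TRINITY_DN6004_c0_g1, 1.31 for 2-oxoglutarate dehydrogenase TRINITY_DN3311_c0_g1 and 1.59 for succinate-CoA ligase TRINITY_DN1776_c0_g3. They were 0.79 for succinate dehydrogenase TRINITY_DN1005_c0_g1, 0.66 for cytoplasmic malate dehydrogenase TRINITY_DN3067_c0_g1 and 1.97 for mitochondrial malate dehydrogenase TRINITY_DN1577_c0_g1.

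Around the cycle the difference was 0.97 for isocitrate lyase TRINITY_DN176_c1_g1, 1.46 for malate synthase TRINITY_DN1209_c0_g1, 1.80 for acetyl-CoA synthetase TRINITY_DN706_c1_g2, 1.13 for phosphoenolpyruvate carboxylase TRINITY_DN2649_c0_g1 and 2.53 for the carrier TRINITY_DN1651_c0_g1. It was 0.76 for hydroxymethylglutaryl-CoA synthase TRINITY_DN2103_c0_g1. It was negative, at -0.88 for pyruvate carboxylase TRINITY_DN1100_c1_g2, -1.80 for malic enzyme TRINITY_DN1988_c0_g1, -1.37 for ATP-citrate lyase TRINITY_DN1223_c0_g1, -2.82 for glutamate dehydrogenase TRINITY_DN224_c1_g1 and -0.58 for the composite gene TRINITY_DN172_c0_g1. The last call was lost under 18 of 19 alternatives. With libraries of shared codes summed, these differences were no longer called, and far fewer were called over all tested genes as well. For citrate synthase TRINITY_DN865_c0_g1 itself the difference, 0.09 ± 0.23, is a description without a test.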

How the results depend on the processing

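The direction of the 4 log2 fold changes of TRINITY_DN865_c0_g1 was the same under every alternative run. In exponential phase the salt effect was -3.53 with DESeq2 or its size factors, -3.68 for the component sum, -2.80 with library totals and -3.34 with libraries of shared codes summed. In stationary phase it was -2.79 with library totals. The freshwater phase effect of the component sum was -1.63. Without single libraries the 2 salt effects ran from -3.73 to -3.43 and from -3.54 to -3.22, and the phase effects from -1.65 to -1.36 in freshwater and from -1.47 to -1.15 in marine medium. The difference between the salt effects ran from -0.11 to 0.47. With the replicate block the salt effects were -3.43 and -3.35.

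Counts of cycle genes moved more, and the cause was not tested. The main counts are over all 32 tested cycle genes, and 19 of these were not found in both media. Lower in exponential phase were 21, but 12 with the replicate block, 1 with shared codes summed, 11 among genes found in both media and 14 to 23 without single libraries. Higher in stationary phase were 7, but 11 with library totals, 4 without the filter, 4 with the block, 0 with shared codes summed and 3 to 6 without single libraries. Lower in stationary phase were 13, but 4 with the block, 4 with shared codes summed, 2 among genes found in both media and 5 to 12 without single libraries. The difference between phases was more positive for 11, but for 0 with shared codes summed and for 10 to 12 without single libraries; 12 were lower in freshwater stationary phase whichever single library was left out. With library totals the salt effect turned to 0.22 for fumarase TRINITY_DN684_c0_g1 in stationary phase and to 0.20 for dihydrolipoyl dehydrogenase TRINITY_DN755_c0_g1 in exponential phase. By Spearman's rho 1 of the 8 most like genes stayed. With 3 libraries a group and shared codes among the marine ones, small differences cannot be settled.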
